A study of Mus musculus with 16 samples.

Results

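The transcripts described here are 9 marker genes of striatal projection neurons (Drd1, Drd2, Adora2a, Penk, Six3, Ppp1r1b, Rgs9, Pde10a and Syndig1l), whose RNA was sequenced from the cerebral cortex of mice. They were taken by symbol from a table of 55573 gene IDs, and all 9 were found. The study had 4 groups of 4 libraries: Aifm1-KI, an Aifm1 (R200 del) knock-in, Aifm1-WT, its littermate wild types, Hq-mut, the Harlequin mutant of the stock B6CBACa Aw-J/A-Aifm1Hq/J, and Hq-WT, the wild-type littermates of that stock. Cortices came from mice at around postnatal day 180 with no treatment, and the labels give the strain of all 16 samples as C57BL/6, Harlequin stock included. Aifm1 encodes apoptosis-inducing factor, a mitochondrial flavoprotein needed for assembly of the respiratory chain, and both alleles are present in the whole animal rather than in chosen cells. The 9 genes were picked with their mutant and wild-type levels in these libraries known. Their differences between mutants and littermates are therefore a description, and no test of them is used as support.

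Striatal projection neurons are the GABA neurons that make up most of the striatum, the nucleus that lies beneath the cortex and receives its input. Those of the direct pathway carry the dopamine receptor D1 and use substance P and dynorphin as peptides, and those of the indirect pathway carry the dopamine receptor D2 and an adenosine receptor encoded by Adora2a and use enkephalin. Both kinds share a cyclic AMP signalling machinery in which dopamine and adenosine receptors raise or lower cyclic AMP, phosphodiesterases break it down, and the phosphatase inhibitor DARPP-32 relays the signal. Several of these genes are also expressed by some cortical neurons, at lower levels than in striatum.

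Total counts per library ran from 10671580 to 32551594, and a count of 0 allows a level of up to 0.0876 to 0.277 CPM when the limit is set at 3 counts, for counting error only. CPM are read counts scaled by TMM factors to one library size. Aifm1 averaged 3.32 ± 0.79 CPM in Hq-mut and 23.9 ± 1.25 CPM in Hq-WT, and 23.7 ± 1.84 CPM in Aifm1-KI and 22.7 ± 0.81 CPM in Aifm1-WT (SD, n = 4 each). The Harlequin label is thus borne out by the transcript level, while a deletion of 1 codon is not read by counts per gene. The 9 genes used to define cortical excitatory neurons (Slc17a7, Tbr1, Cux2 and others) summed to 1456 to 2812 CPM over the 16 libraries and none of them was at 0 in any library. In 3 libraries (replicates 2 and 4 of Aifm1-KI and replicate 3 of Hq-mut) the striatal markers stood far above the rest of their groups, so the results that rest on them are also given without them. Choroid plexus genes set other libraries apart: their sum was 2899 CPM in Aifm1-KI 2 and 5553 CPM in Hq-WT 2, against 6.98 to 387 CPM in the other 14 libraries.

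Promoter sequence is shown for the dopamine receptors that define the pathways and for Rgs9, which acts on the signalling of both. The sequences are the 250 bases before the RefSeq start on GRCm38.p6, written 5′ to 3′ on the strand of the gene, with capitals marking GC boxes (GGGCGG on either strand, so also CCGCCC) and a TATA box (TATAAA). Drd1 has a RefSeq start on each of 2 windows of the minus strand, chr13:54055659-54055908 and chr13:54054781-54055030. The Drd2 window is chr9:49340153-49340402 on the plus strand, and that of Rgs9 is chr11:109298182-109298431 on the minus strand.
Drd1, upstream start: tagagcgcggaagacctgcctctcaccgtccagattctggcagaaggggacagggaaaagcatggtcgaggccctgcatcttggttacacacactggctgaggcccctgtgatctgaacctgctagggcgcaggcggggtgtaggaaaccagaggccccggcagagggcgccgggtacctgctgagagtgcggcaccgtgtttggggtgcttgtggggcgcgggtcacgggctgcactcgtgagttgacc
Drd1, downstream start: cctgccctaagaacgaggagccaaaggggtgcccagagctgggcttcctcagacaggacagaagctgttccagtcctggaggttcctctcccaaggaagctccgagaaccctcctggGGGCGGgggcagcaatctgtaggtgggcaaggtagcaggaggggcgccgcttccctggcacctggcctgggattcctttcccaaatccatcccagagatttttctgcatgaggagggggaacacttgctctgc
Drd2: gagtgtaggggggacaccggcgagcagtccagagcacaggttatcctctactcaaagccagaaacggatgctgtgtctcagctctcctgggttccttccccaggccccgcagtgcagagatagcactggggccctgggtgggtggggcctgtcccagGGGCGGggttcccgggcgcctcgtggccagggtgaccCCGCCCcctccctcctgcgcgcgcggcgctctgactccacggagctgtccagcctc
Rgs9: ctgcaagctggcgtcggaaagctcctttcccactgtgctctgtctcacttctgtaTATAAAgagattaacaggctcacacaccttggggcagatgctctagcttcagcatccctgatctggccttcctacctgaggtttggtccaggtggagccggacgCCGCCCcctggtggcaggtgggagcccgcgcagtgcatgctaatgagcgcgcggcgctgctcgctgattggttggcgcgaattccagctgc
RefSeq starts were matched for 5 of the 9 genes (Drd1, Drd2, Six3, Rgs9 and Pde10a), giving 7 windows of 32851 in the table. A GC box was found in 4 of the 7 windows, against 32.7% of all windows. The TATA box letters were found in 1 of the 7, that of Rgs9, against 12.4% of all. The full cyclic AMP response element (TGACGTCA) and its shorter form TGACG, searched on both strands, were found in 0 of the 7, against 1.55% and 17.8% of all windows. The 7 windows held 48.8 to 72.8% G and C, and 6 of them were above the median of all windows, 52.4%. A match of letters describes these windows and does not show that a factor binds there.

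The levels in wild-type cortex set the background for what follows. Per kilobase of exon, Ppp1r1b, which encodes DARPP-32, and Penk, which encodes the enkephalin precursor, were the most abundant of the 9 in both wild-type groups. Ppp1r1b averaged 19.7 ± 4.33 CPM per kilobase in Hq-WT and 18.3 ± 0.998 in Aifm1-WT, and Penk averaged 17.5 ± 4.91 CPM per kilobase in Hq-WT and 15.5 ± 3.89 in Aifm1-WT (SD, n = 4 each). The libraries of these 2 genes overlapped within each group, so their order is not resolved. Pde10a, the phosphodiesterase that is most enriched in striatal projection neurons, came next with 9.30 ± 1.36 CPM per kilobase in Hq-WT and 5.35 ± 1.57 in Aifm1-WT. It overlapped with neither neighbour in the order of either group. Rgs9, whose protein speeds the shut-off of G proteins coupled to dopamine receptors, and Drd1 followed at about 2 to 3 CPM per kilobase, with Drd1 above Rgs9 in every Hq-WT library (2.27 to 4.09 against 1.91 to 2.25) and the libraries of both genes overlapping in Aifm1-WT. Syndig1l, which encodes a synapse differentiation-inducing 1 like protein, averaged 1.13 ± 0.68 CPM per kilobase in Hq-WT and 1.02 ± 0.16 in Aifm1-WT. Adora2a was at 0.62 ± 0.10 and Drd2 at 0.63 ± 0.20 CPM per kilobase in Hq-WT, where their libraries overlapped, and Adora2a was at 0.61 ± 0.11 and Drd2 at 0.34 ± 0.024 in Aifm1-WT, where they did not. Six3, a homeobox transcription factor of the forebrain that is required for neurons of the indirect pathway, was the lowest at 0.057 ± 0.039 CPM per kilobase in Hq-WT and 0.041 ± 0.046 in Aifm1-WT, which is 1 to 11 reads per Hq-WT library and 0 to 13 per Aifm1-WT library.

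The wild types of the stocks were compared with each other by edgeR's quasi-likelihood test in the fit of all 16 libraries. This contrast was not used to choose the genes, and stock and any batch of the lines cannot be told apart in it. Of 19129 genes tested, 109 passed a Benjamini-Hochberg adjusted p of 0.05, 0.57% of them, and 0 of the 9 striatal markers did. With no adjustment, 1 of the 9 was under 0.05, and DESeq2 called 0 of the 9 where it called 307 genes, 1.6% of those tested. Pde10a came nearest. Its levels were 123, 93.9, 132 and 129 CPM in Hq-WT replicates 1 to 4 and 54.3, 62.3, 59.8 and 98.5 CPM in Aifm1-WT replicates 1 to 4. The highest Aifm1-WT library lay between Hq-WT libraries, so the groups overlapped, and the log2 fold change was 0.81 (SE 0.30, adjusted p = 0.359). Rgs9 was at 14.3, 14.4, 12.3 and 12.2 CPM in Hq-WT and 14.8, 16.2, 15.7 and 17.4 CPM in Aifm1-WT. All 4 Hq-WT libraries were below all 4 of Aifm1-WT, a pattern that 4.61% of the genes tested also had, and the log2 fold change of -0.27 (SE 0.39, adjusted p = 0.87) did not pass. Drd2 had a log2 fold change of 0.93 (SE 0.81) and the other 6 lay between 0.03 and 0.45, all with overlapping groups. The fit takes the spread of each gene from all 16 libraries, the high mutant ones included. These standard errors are therefore not those of the wild types alone. Without Aifm1-KI 2, Aifm1-KI 4 and Hq-mut 3, edgeR called 103 genes, 0.52% of those tested, and 0 of the 9. With replicate numbers within each line as a block, 453 genes were called, 2.37% of those tested, and Pde10a was among them. That block removes spread between replicates that this contrast between lines rests on, and the Aifm1 numbers were not taken as pairs. These calls are therefore not used as support.

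**Figure D1:**
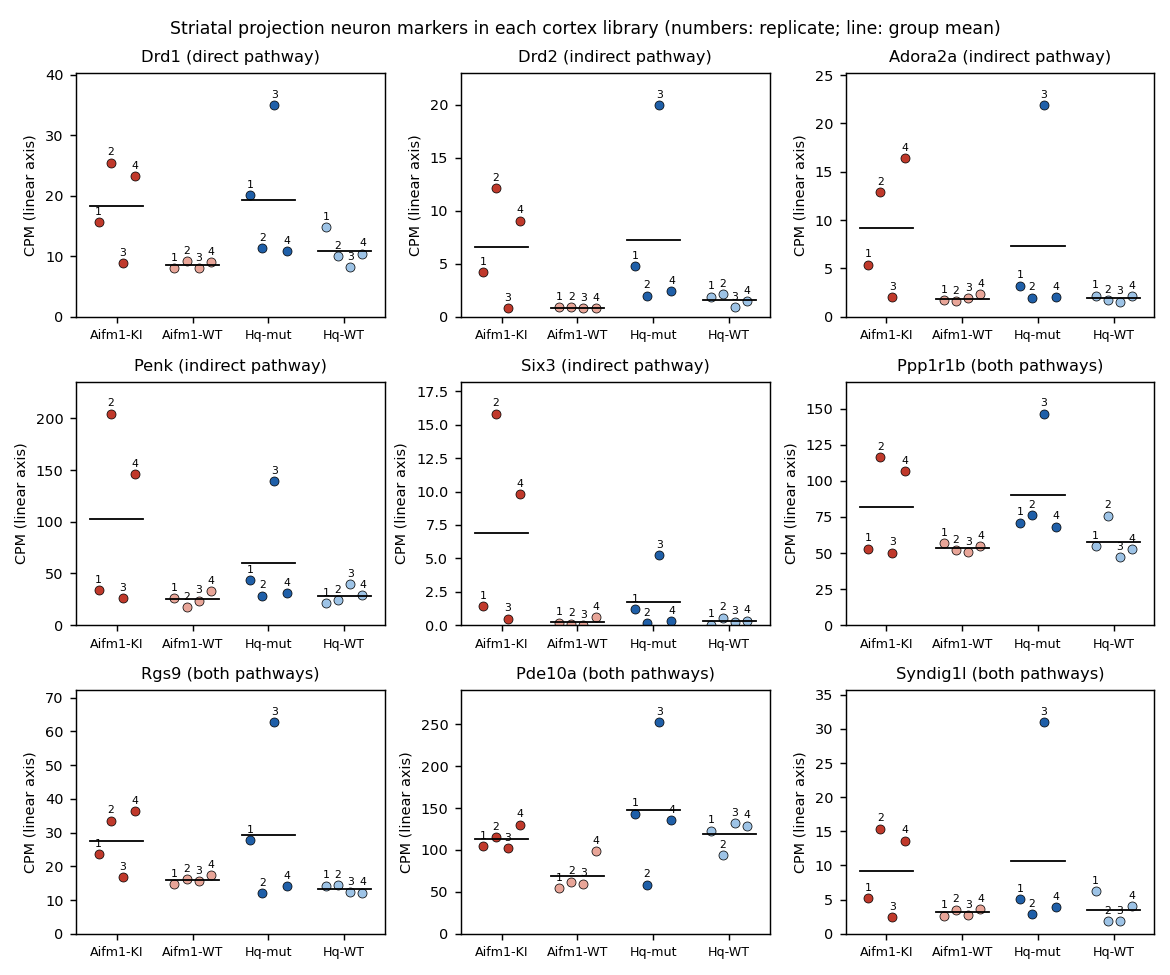
TMM-scaled CPM (linear axis) of the 9 striatal markers in each library, by group, with replicate numbers beside the points and a line at the group mean. Replicates 2 and 4 of Aifm1-KI and replicate 3 of Hq-mut are above every wild type of their line in all 9 genes, with Drd2 at 12.2, 9.07 and 20.0 CPM.

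In the knock-in line the indirect-pathway markers were higher in 3 of the 4 Aifm1-KI libraries than in any littermate. Drd2, the receptor that lowers cyclic AMP on dopamine binding, was at 4.23, 12.2, 0.838 and 9.07 CPM in Aifm1-KI replicates 1 to 4 and at 0.903, 0.928, 0.819 and 0.801 CPM in Aifm1-WT. Replicate 3 of Aifm1-KI sat among the wild types, and replicates 1, 2 and 4 were above all of them. The log2 fold change was 2.98 (SE 0.62). Adora2a, the adenosine receptor that raises cyclic AMP in the same neurons, was at 5.39, 12.9, 2.01 and 16.4 CPM in Aifm1-KI and at 1.71, 1.57, 1.91 and 2.31 CPM in Aifm1-WT, with a fitted log2 fold change of 2.34 (SE 0.53). Its replicate 3 again lay within the wild-type range. Penk was at 34.2, 204.6, 26.4 and 146 CPM in Aifm1-KI and at 26.6, 17.7, 23.8 and 33.1 CPM in Aifm1-WT, with a fitted log2 fold change of 2.05 (SE 0.59). For Penk, replicate 1 was barely above the highest wild type, so 2 libraries carry the difference. Six3 had 27, 542, 6 and 225 reads in Aifm1-KI and 4, 3, 0 and 13 reads in Aifm1-WT, which is 1.43, 15.8, 0.503 and 9.82 CPM against 0.190, 0.121, 0 and 0.578 CPM. Its fitted log2 fold change of 4.95 (SE 1.11) is the highest of the 9, and it depends on the prior count because 3 of the wild-type libraries hold 4 reads or fewer.

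Drd1, the only marker of the direct pathway among the 9 and the receptor that raises cyclic AMP on dopamine binding, was at 15.6, 25.5, 8.80 and 23.2 CPM in Aifm1-KI and at 7.98, 9.16, 7.98 and 9.03 CPM in Aifm1-WT. The same 3 mutant libraries were above every wild type, and the log2 fold change was 1.13 (SE 0.27), a smaller step than that of the 4 indirect-pathway markers. Of the 4 genes shared by both pathways, Rgs9, Pde10a and Ppp1r1b had smaller fold changes than Drd1, and Syndig1l had a larger one. Rgs9 was at 23.6, 33.5, 16.7 and 36.3 CPM in Aifm1-KI and at 14.8, 16.2, 15.7 and 17.4 CPM in Aifm1-WT, with a fitted log2 fold change of 0.81 (SE 0.20). Ppp1r1b was at 53.0, 116, 50.4 and 107 CPM in Aifm1-KI and at 56.9, 51.9, 50.5 and 55.0 CPM in Aifm1-WT, so that replicates 2 and 4 were above every wild type and replicate 3 was just under the lowest one, and the log2 fold change was 0.63 (SE 0.25). Syndig1l was at 5.23, 15.4, 2.43 and 13.7 CPM in Aifm1-KI and at 2.66, 3.55, 2.79 and 3.60 CPM in Aifm1-WT, with a fitted log2 fold change of 1.59 (SE 0.47), with replicate 3 the lowest of all 8 libraries. Pde10a behaved differently from the other 8. It was at 104, 115, 102 and 130 CPM in Aifm1-KI and at 54.3, 62.3, 59.8 and 98.5 CPM in Aifm1-WT, so that replicate 3 was high along with the others, and the log2 fold change was 0.73 (SE 0.17). It was the 1 marker of the 9 whose groups did not overlap, where 2.03% of the 18383 genes tested had all 4 mutant libraries above all 4 wild types.

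At an adjusted p of 0.05 the edgeR test called 0 of these 9 genes and 0 of the 18383 tested, 0% of them, although all 9 were under 0.05 with no adjustment, as were 11.4% of all genes. The median log2 fold change was 1.59 over the 9 and 0.01 over all genes. DESeq2 called 82 genes, 0.446% of those tested, and 6 of the 9 were among them (Drd1, Drd2, Adora2a, Six3, Rgs9 and Pde10a). Leaving out replicate 3 of Aifm1-KI, edgeR called 46 genes, 0.244%, among them Drd1, Drd2, Adora2a and Rgs9. Leaving out replicates 2 and 4 instead, it called 0 genes and the median of the 9 was 0.55, with Drd2 at 1.64, Adora2a at 1.05, Penk at 0.29 and Ppp1r1b at -0.04. Since the genes were chosen on this contrast, none of these counts is evidence about them.

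**Figure D2:**
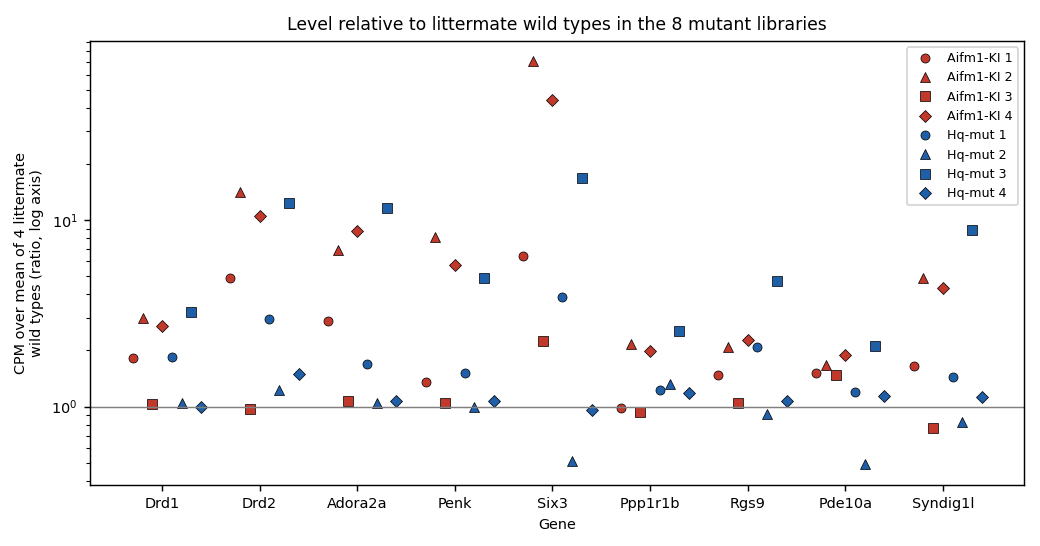
CPM of each mutant library over the mean CPM of its 4 littermate wild types (ratio, log axis), for the 9 markers along the horizontal axis, with knock-in libraries in red and Harlequin libraries in blue. Drd2 reached 14.1-fold in Aifm1-KI 2, 10.5-fold in Aifm1-KI 4 and 12.4-fold in Hq-mut 3, while Aifm1-KI 3, Hq-mut 2 and Hq-mut 4 stayed near the wild-type mean for most markers.

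Seen by library, the markers were high or near the wild types as a set. In Aifm1-KI 2 and Aifm1-KI 4 all 9 were above all 4 Aifm1-WT libraries, in Aifm1-KI 1 all but Ppp1r1b were, and in Aifm1-KI 3 Pde10a was the only one. Among all genes tested, 30.9%, 26.6%, 20.8% and 18.5% lay above all 4 wild types in those libraries. In the Harlequin line all 9 were above all 4 Hq-WT libraries in Hq-mut 3 and 7 of the 9 in Hq-mut 1, where 14.4% and 18.3% of all genes were. In Hq-mut 2 only Ppp1r1b was above, where 33.9% of all genes were, and in Hq-mut 4 only Drd2 and Pde10a, where 20.5% of all genes were. The labels do not say what sets these libraries apart within their groups. In bulk tissue, a larger share of striatal cells and more of each RNA per cell cannot be told apart.

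In the Harlequin line the markers were high chiefly in 1 library, Hq-mut 3. Drd2 was at 4.75, 1.99, 20.0 and 2.41 CPM in Hq-mut replicates 1 to 4 and at 1.90, 2.11, 0.924 and 1.51 CPM in Hq-WT. Replicate 3 was the highest mutant and the lowest wild type, and the groups overlapped at replicate 2. The log2 fold change was 2.13 (SE 0.71). Adora2a was at 3.21, 1.99, 21.9 and 2.03 CPM in Hq-mut and at 2.18, 1.70, 1.57 and 2.14 CPM in Hq-WT, with a fitted log2 fold change of 1.91 (SE 0.76). Penk was at 43.2, 28.5, 139 and 30.8 CPM in Hq-mut and at 21.2, 24.3, 39.6 and 29.1 CPM in Hq-WT, with a fitted log2 fold change of 1.07 (SE 0.48). In both genes 2 mutant libraries, replicates 1 and 3, were above every wild type, with replicate 1 far below replicate 3. Six3 had 28, 4, 116 and 7 reads in Hq-mut and 1, 11, 3 and 7 reads in Hq-WT, and was left out as too low before the fit, so it has no fitted value in this line.

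Drd1 was at 20.2, 11.4, 35.01 and 10.8 CPM in Hq-mut and at 14.9, 9.96, 8.23 and 10.4 CPM in Hq-WT, with a fitted log2 fold change of 0.81 (SE 0.36). Replicates 2 and 4 of the mutant lay within the wild-type range. Rgs9 was at 27.7, 12.2, 62.7 and 14.2 CPM in Hq-mut and at 14.3, 14.4, 12.3 and 12.2 CPM in Hq-WT, with a fitted log2 fold change of 1.12 (SE 0.45). Syndig1l was at 5.05, 2.90, 31.0 and 3.93 CPM in Hq-mut and at 6.20, 1.85, 1.85 and 4.08 CPM in Hq-WT, with a fitted log2 fold change of 1.58 (SE 0.76) that 1 library carries. For Syndig1l every mutant library but replicate 3 was inside the wild-type range. Ppp1r1b was at 71.1, 76.1, 147 and 68.3 CPM in Hq-mut and at 54.9, 76.0, 47.1 and 52.7 CPM in Hq-WT, with a fitted log2 fold change of 0.63 (SE 0.25). Pde10a was at 143, 58.7, 253 and 136 CPM in Hq-mut and at 123, 93.9, 132 and 129 CPM in Hq-WT, with replicate 2 of the mutant the lowest of all 8, and its log2 fold change was 0.28 (SE 0.35).

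Of the 8 markers with a fitted value, edgeR called 0 at an adjusted p of 0.05, where it called 3 of 17969 genes, 0.0167%, and DESeq2 likewise called 0 of the 8. With no adjustment 4 of the 8 were under 0.05, as were 2.14% of all genes. No marker had all 4 Hq-mut libraries above all 4 Hq-WT libraries, which 0.857% of genes did. The median log2 fold change was 1.09 over the 8 and 0.01 over all genes.

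Harlequin libraries of the same replicate number deviated together from their group means over all genes, with a correlation of 0.41 to 0.53 in each of the 4 pairs, so the pairs were also read one by one. Drd2 was higher in the mutant by 1.28, 4.30 and 0.64 log2 CPM in pairs 1, 3 and 4, and lower in pair 2, at -0.08. Adora2a differed by 0.54, 0.22, 3.72 and -0.07 in pairs 1 to 4, and Syndig1l by -0.29, 0.62, 4.0 and -0.05. These 2 genes show the pattern at its sharpest, with a difference in pair 3 many times that of any other pair. Drd1, Penk and Ppp1r1b were higher in the mutant in all 4 pairs, and Drd1 differed by 0.44, 0.19, 2.08 and 0.05. Penk differed by 1.02, 0.23, 1.81 and 0.08, with pair 1 also well above 0. Rgs9 and Pde10a were higher in 3 of the 4 pairs, with pair 2 the exception for each. With the pairs as a block, edgeR gave smaller log2 fold changes: 1.46 for Drd2, 1.10 for Adora2a, 0.91 for Syndig1l, 0.78 for Rgs9, 0.77 for Penk and 0.12 for Pde10a, with 0 of the 8 called. Without pair 3 and without the block the median of the 8 was 0.24, Drd2 was at 0.71, Adora2a at 0.24, and Pde10a and Syndig1l at -0.06 each.

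**Figure D3:**
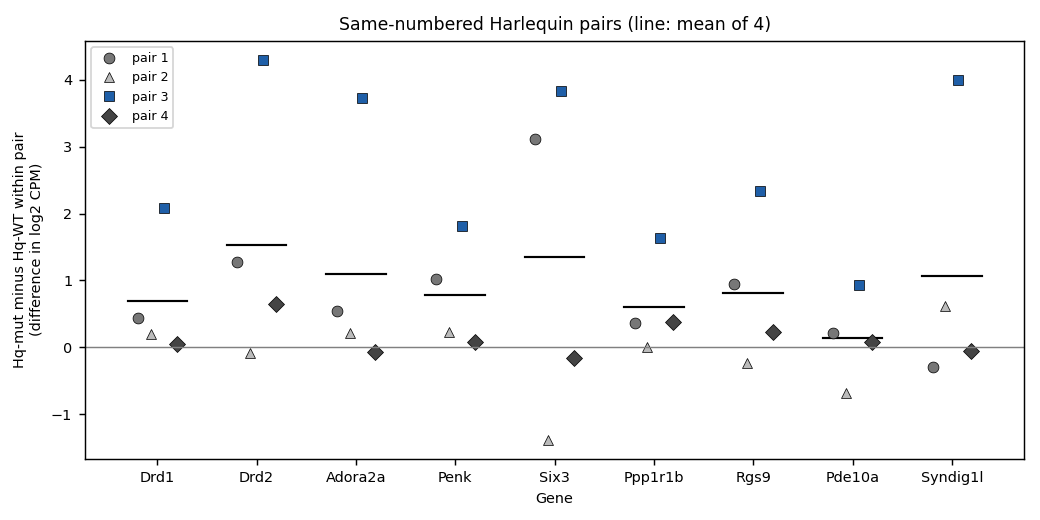
Difference in log2 CPM (prior count of 2) between the Hq-mut and the Hq-WT library of the same replicate number, for each marker. The line is the mean of the 4 pairs. Pair 3 is the highest for all 9 genes, from 0.94 for Pde10a to 4.30 for Drd2, and pair 1 of Six3, at 3.12, is the highest of the other pairs.

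The balance between the pathways was described by the mean log2 CPM of Drd2, Adora2a, Penk and Six3 minus the log2 CPM of Drd1. It was -1.40, 0.07, -1.91 and -0.11 in Aifm1-KI replicates 1 to 4 and -2.07, -2.53, -2.50 and -1.79 in Aifm1-WT. Replicates 2 and 4, and to a lesser degree replicate 1, were shifted toward the indirect markers, and the group means differed by 1.39. In Harlequin it was -1.89, -2.28, -0.55 and -1.95 in Hq-mut and -2.94, -1.83, -1.90 and -2.02 in Hq-WT, with replicate 3 of the mutant shifted and a difference of means of 0.51. That difference was 0.13 without Hq-mut 3, and 0.25 without Hq-WT 1. Six3, which enters the balance, had 0 to 13 reads in Aifm1-WT libraries and 1 to 11 in Hq-WT libraries. Its wild-type log2 CPM therefore depend on the prior count. With 6 further direct-pathway and 2 further indirect-pathway genes added, the balance averaged 0.12 in Aifm1-KI and -0.87 in Aifm1-WT. It averaged -0.36 in Hq-mut and -0.81 in Hq-WT. The comparison rests on unequal baselines: in Aifm1-WT cortex, Drd1 had 8.54 ± 0.65 CPM while Drd2 had 0.86 ± 0.062 CPM (SD, n = 4), so an equal number of added reads is a larger fold for Drd2.

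On the linear scale the added amounts of the receptors were much closer. In Aifm1-KI 2 Drd1 exceeded its wild-type mean by 16.9 CPM, Drd2 by 11.3 CPM and Adora2a by 11.0 CPM. In Aifm1-KI 4 the excesses were 14.7, 8.21 and 14.5 CPM in the same order, and in Hq-mut 3 they were 24.1, 18.4 and 20.0 CPM. For each CPM of Drd2 above the wild-type mean, Drd1 was thus above its own by 1.5 CPM in Aifm1-KI 2, 1.79 in Aifm1-KI 4 and 1.31 in Hq-mut 3. Ppp1r1b was above its own mean by 5.56, 6.48 and 4.85 CPM per CPM of Drd2 in the same 3 libraries, and Syndig1l by 1.08, 1.28 and 1.498, both with a spread like that of Drd1. The ratios of Six3, Penk, Rgs9, Adora2a and Pde10a varied more. The excess of Six3 was 1.38 and 1.17 CPM per CPM of Drd2 in Aifm1-KI 2 and 4 and 0.267 in Hq-mut 3. That of Penk was 15.9 and 14.7 CPM per CPM of Drd2 in the same knock-in libraries and 6.02 in Hq-mut 3. That of Rgs9 was 1.55, 2.47 and 2.69 CPM per CPM of Drd2 in Aifm1-KI 2, Aifm1-KI 4 and Hq-mut 3, with Aifm1-KI 2 the lowest. Six3 and Penk were thus high relative to Drd2 in Aifm1-KI 2 and 4, a difference between 3 single libraries that has no replicate check. In Aifm1-KI 1 the excess of Six3 was 0.358 and that of Penk 2.64 CPM per CPM of Drd2. In Hq-mut 1 these were 0.283 and 4.67. The excess of Drd1 was 2.09 in Aifm1-KI 1 and 2.96 in Hq-mut 1, and that of Ppp1r1b was -0.163 and 4.26.

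**Figure D4:**
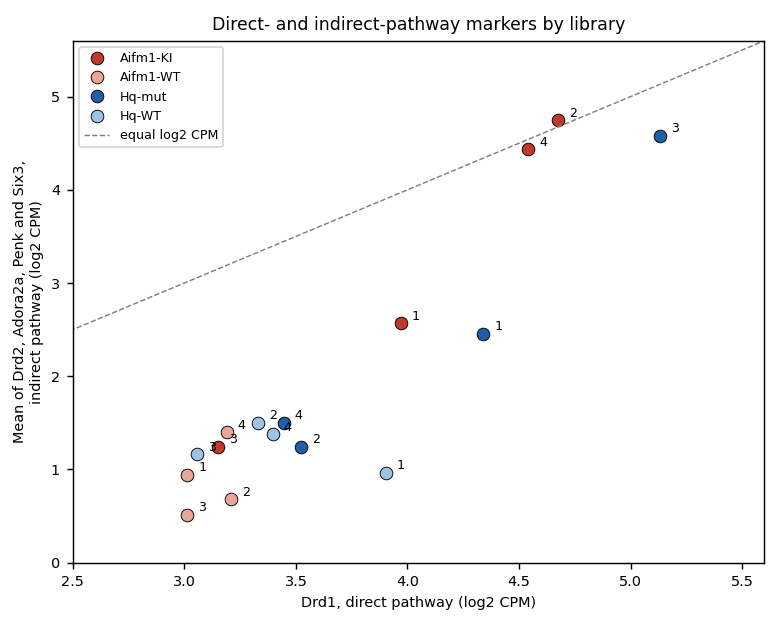
Mean log2 CPM of the indirect-pathway markers (Drd2, Adora2a, Penk, Six3) against log2 CPM of the direct-pathway marker Drd1, 1 point per library, coloured by group and numbered by replicate. Aifm1-KI 2 and 4 and Hq-mut 3 lie apart at the upper right, near or below the dashed line of equal log2 CPM, at 4.44 to 4.75 on the indirect axis, while all 8 wild-type libraries lie between 0.51 and 1.5.

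The difference between the mutants' effects, Aifm1-KI against its wild types minus Hq-mut against its own, was fitted over all 16 libraries. Of 19129 genes 2 were called, 0.0105%, and 0 of the 9 markers were, either by edgeR or by DESeq2, which called 5 genes, 0.0261%. With no adjustment 0 of the 9 were under 0.05, where 5.08% of all genes were. The fitted differences ran from -0.32 (SE 0.55) for Rgs9 to 2.52 (SE 1.82) for Six3. Every one of the 9 was smaller than 1.5 times its standard error, and the data do not show whether the effects are alike. The median over the 9 was 0.41, and it rested on single libraries: it was 1.43, with all 9 above 0, without Hq-mut 3, and 0.21 and 0.18 without Aifm1-KI 2 and without Aifm1-KI 4. It was 0.12 and 0.11 without Hq-mut 2 and without Hq-mut 4. Leaving out each library in turn, Adora2a ran from -0.013 to 2.005, Rgs9 from -0.58 to 0.38, Syndig1l from -0.44 to 1.43 and Ppp1r1b from -0.23 to 0.33, with 0 markers called each time. Without Aifm1-KI 2, Aifm1-KI 4 and Hq-mut 3 together, the median was 0.20.

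Longer lists of genes of the same neurons were high in the same libraries to differing degrees. They were chosen with earlier results of these data known. Of 6 further direct-pathway genes, 5 were tested in each mutant line and 0 were called, with 4 log2 fold changes above 0 in Aifm1-KI and 5 in Hq-mut and medians of 0.36 and 0.36. Tac1, the substance P precursor, was at 11.1, 29.9, 8.13 and 22.2 CPM in Aifm1-KI and at 6.32, 6.54, 5.35 and 10.1 CPM in Aifm1-WT. It thus had the same high libraries as Drd1. In the Harlequin line, Tac1 was at 16.5, 21.9, 22.6 and 10.1 CPM in Hq-mut and at 10.6, 12.1, 7.21 and 9.08 CPM in Hq-WT, with replicate 2 as high as replicate 3, unlike the 9 markers. Pdyn, the dynorphin precursor, had log2 fold changes of 0.16 (SE 0.13) in Aifm1-KI and 0.17 (SE 0.21) in Hq-mut, and the muscarinic receptor gene Chrm4 had -0.33 (SE 0.14) and 0.05 (SE 0.16). Slc35d3, needed for D1 receptor traffic, followed the markers, at 4.21 and 3.88 CPM in Aifm1-KI 2 and 4 and 5.35 CPM in Hq-mut 3, against 0.477 to 1.37 CPM in the other 13 libraries.

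Of 2 further indirect-pathway genes found in the table, neither was called in either line. Gpr6, an orphan receptor of the indirect pathway, was at 2.32, 4.15, 1.76 and 2.62 CPM in Aifm1-KI and at 1.05, 1.49, 1.48 and 1.29 CPM in Aifm1-WT, with no overlap. It was at 1.46, 1.31, 8.14 and 0.97 CPM in Hq-mut and at 1.74, 2.11, 1.02 and 0.34 CPM in Hq-WT, so that Hq-mut 3 alone was above its wild types. Sp9, a transcription factor of indirect-pathway neurons that cortical interneurons also express, had log2 fold changes of 0.65 (SE 0.19) in Aifm1-KI and -0.004 (SE 0.22) in Hq-mut.

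Of 18 genes shared by striatal projection neurons, 17 were tested in each line and 0 were called. In Aifm1-KI 14 of the 17 log2 fold changes were above 0, with a median of 0.31, and in Hq-mut 16 of the 17, with a median of 0.35, where the medians of all genes were 0.01 in each. Adcy5, the main adenylyl cyclase of the striatum, was at 160, 263, 118 and 255 CPM in Aifm1-KI and at 129, 133, 121 and 125 CPM in Aifm1-WT. Its pattern across libraries was that of Drd1. Adcy5 was at 176, 136, 243 and 141 CPM in Hq-mut and at 164, 106, 159 and 157 CPM in Hq-WT. Gnal, the G protein subunit that couples D1 and adenosine receptors to it, reached 239 and 196 CPM in Aifm1-KI 2 and 4 and 205 CPM in Hq-mut 3, but also 204 CPM in Hq-mut 1. Ptpn5, the striatum-enriched phosphatase that cortex also expresses, had log2 fold changes of 0.04 (SE 0.059) and -0.14 (SE 0.12). Of 14 partners of cyclic AMP and dopamine signalling that are widely expressed, 0 were called by edgeR in either line. Their median log2 fold changes were -0.02 in Aifm1-KI and 0.09 in Hq-mut, and DESeq2 called 1 of them, the opioid receptor gene Oprm1, higher in Aifm1-KI.

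The markers of other cells that moved with the striatal genes were examined in the same libraries. The summed level of 6 genes of striatal cholinergic interneurons was 5.86, 61.5, 4.61 and 31.5 CPM in Aifm1-KI replicates 1 to 4, against 3.85 to 4.96 CPM in Aifm1-WT, and 9.22 CPM in Hq-mut 3, against 4.49 to 6.59 CPM in the other Hq-mut libraries and 4.53 to 6.64 CPM in Hq-WT. The same 2 knock-in libraries that were high in Penk and Six3 were therefore the high ones here. Lhx8, the factor that defines these interneurons and basal forebrain cholinergic cells, was at 1.34 CPM in Aifm1-KI 2, 0.567 CPM in Aifm1-KI 4 and 0.404 CPM in Hq-mut 3, against 0 to 0.089 CPM in the other 13 libraries, 10 of which had no read. Chat, the acetylcholine-synthesising enzyme, ran from 0.198 to 1.39 CPM over the 16 libraries and was never at 0. Ecel1, an endopeptidase-like gene, made up most of the sum in the knock-in libraries, at 2.75, 49.8, 1.76 and 26.3 CPM in Aifm1-KI and 1.82 to 2.91 CPM in Aifm1-WT, and was not raised in Hq-mut 3, at 2.97 CPM against 2.33 to 4.84 CPM in Hq-WT. All 6 genes were above every Aifm1-WT library in Aifm1-KI 2 and in Aifm1-KI 4, and 4 of the 6 were above every Hq-WT library in Hq-mut 3. Among all genes tested, 30.9%, 26.6% and 14.4% were above every wild type of the line in these libraries. In Hq-mut 3, Slc18a3 was at 0.540 CPM (12 reads), against at most 0.514 CPM in Hq-WT, and Lhx8 had 9 reads. Of the 3 cholinergic genes that were tested in the knock-in line 0 were called. Septal markers (5 genes) summed to 47.9, 60.1, 40.3 and 49.6 CPM in Aifm1-KI replicates 1 to 4 and 44.2 to 50.1 CPM in Aifm1-WT. They summed to 37.0, 29.4, 44.5 and 36.6 CPM in Hq-mut replicates 1 to 4 and 27.5 to 54.9 CPM in Hq-WT. By these sums the 3 libraries high in striatal markers were the highest of their mutant groups. The sums of the groups overlapped in both lines, and of these libraries only Aifm1-KI 2 was above all its wild types. The septal genes did not move as a set. Zic1 and Zic2 were highest of the mutant groups in the same 3 libraries. Trpc4 went the other way in the knock-in line, at 17.5 CPM in Aifm1-KI 2 and lower still in Aifm1-KI 4. It was at 18.6 to 20.6 CPM in Aifm1-WT.

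Cortical excitatory neuron genes summed to 2152, 1456, 2093 and 1944 CPM in Aifm1-KI and to 2104 to 2291 CPM in Aifm1-WT, so the libraries highest in striatal markers were the lowest here. In the Harlequin line they summed to 2141 CPM in Hq-mut 3, the lowest of its group, against 2364 to 2812 CPM in the other Hq-mut libraries and 1957 to 2512 CPM in Hq-WT. Oligodendrocyte genes (8) summed to 1884 and 2759 CPM in Aifm1-KI 2 and 4, against 3916 and 4214 CPM in Aifm1-KI 1 and 3 and 3550 to 4838 CPM in Aifm1-WT. They did not do so in Hq-mut 3, where the sum of 4866 CPM was the highest of its group. Ependymal genes (5) summed to 13.8, 16.1, 8.05 and 17.5 CPM in Aifm1-KI and 6.17 to 12.9 CPM in Aifm1-WT, and to 18.4 CPM in Hq-mut 3, against 4.49 to 11.0 CPM in the other Hq-mut libraries and 4.62 to 11.0 CPM in Hq-WT, so the 3 libraries high in striatal markers were also the highest of their groups in these. In the knock-in line, inhibitory neuron genes (8) were highest in Aifm1-KI 2, at 1016 CPM, and next in Aifm1-KI 4, at 863 CPM, against 771 to 850 CPM in Aifm1-WT. Their log2 fold changes in that line were above 0 for 5 genes and below 0 for 3. Gad2 was at 348 and 220 CPM in Aifm1-KI 2 and 4, against 153 to 169 CPM in Aifm1-WT. Pvalb went the other way, at 7.57 and 18.5 CPM in the same libraries, against 40.4 to 57.1 CPM in Aifm1-WT. In Hq-mut 3 the inhibitory neuron genes, at 955 CPM, were below Hq-mut 2. Midbrain dopamine neuron genes (4) summed to 13.8, 18.9, 14.4 and 16.1 CPM in Aifm1-KI replicates 1 to 4. All of these were above Aifm1-WT, at 12.3 to 13.5 CPM, also in the libraries with few or no raised striatal markers. In Hq-mut 3 the midbrain genes summed to 9.81 CPM, the lowest of its group. Thalamic genes (9) summed to 163 CPM in Aifm1-KI 2 and 124 CPM in Aifm1-KI 4, against 103 CPM in Aifm1-KI 1, 128 CPM in Aifm1-KI 3 and 97.6 to 123 CPM in Aifm1-WT. In the Harlequin line they were highest in Hq-mut 3, at 99.6 CPM, against 76.6 to 88.8 CPM in the other Hq-mut libraries and 80.1 to 92.0 CPM in Hq-WT. Hippocampal genes (7) summed to 48.6 to 56.3 CPM in Aifm1-KI and 51.5 to 61.0 CPM in Aifm1-WT. In the Harlequin line these too were highest in Hq-mut 3, at 57.6 CPM, against 33.0 to 44.7 CPM in the other Hq-mut libraries and 32.6 to 54.9 CPM in Hq-WT. Choroid plexus genes were high in Aifm1-KI 2, as given above, but at 41.7 CPM in Aifm1-KI 4 and 133 CPM in Hq-mut 3 they were within the range of libraries with no raised striatal marker. The part of these markers in the levels of the 9 genes was not tested.

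**Figure D5:**
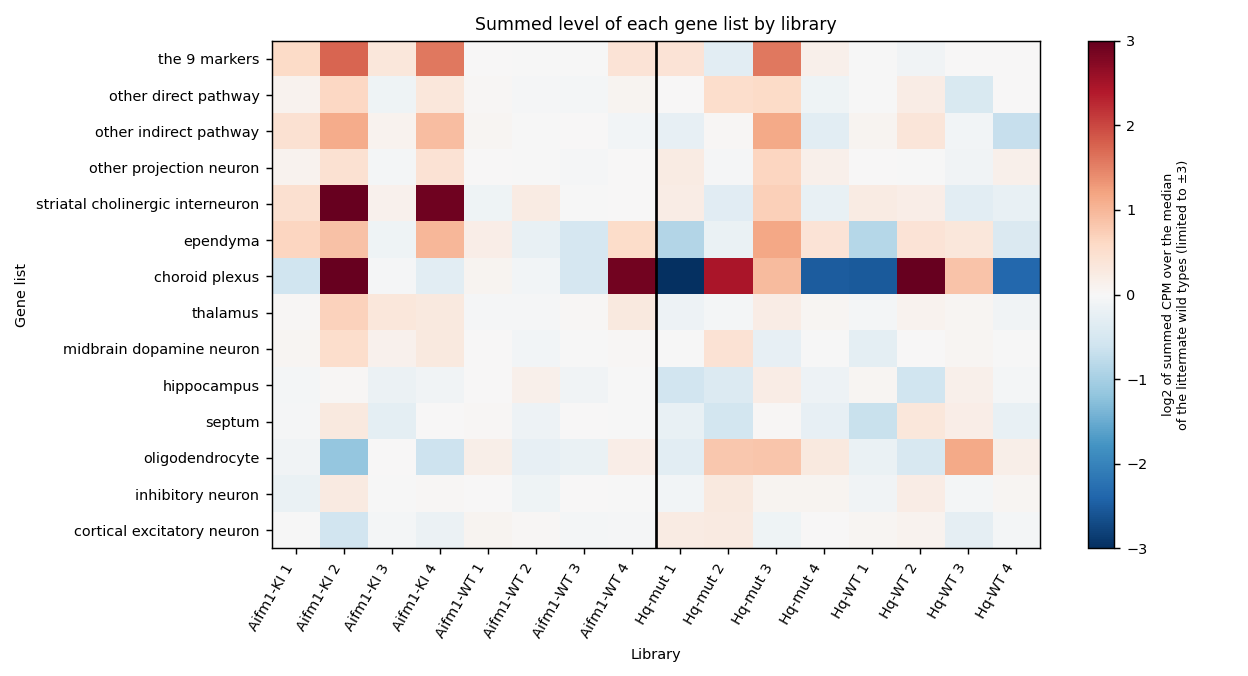
Summed CPM of each marker list in each library as log2 over the median of the littermate wild types, with colours limited to 3 in either direction. The striatal lists are raised in Aifm1-KI 2, Aifm1-KI 4 and Hq-mut 3. The list of other direct-pathway genes is nearly as high in Hq-mut 2, at 91.7 CPM, as in Hq-mut 3, at 94.4 CPM. The cholinergic list is raised mainly in those knock-in libraries, and the choroid plexus list in a different set of libraries that includes Hq-WT 2.

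Among themselves the 9 markers followed a common course over the 16 libraries. The 36 pairs of markers had Pearson correlations of 0.50 to 0.97 in log2 CPM, with a median of 0.85, and of -0.004 to 0.90, with a median of 0.48, over the 13 libraries without Aifm1-KI 2, Aifm1-KI 4 and Hq-mut 3. All pairs share library depth, and the 3 high libraries set most of the likeness. Of 16018 other genes with a mean log2 CPM of at least 0, the 8 most like the mean of the 9 were Lrrc10b at 0.95, Gng7 at 0.94, Slc35d3 at 0.93, Adcy5 at 0.91, Actn2 at 0.90, Slc5a7 at 0.89, Prkch at 0.88 and Rxrg at 0.88. Over the 13 libraries the same genes had correlations of 0.46 to 0.74. Of these 8, all but Prkch, a protein kinase C gene, are on the marker lists above. Lrrc10b was at 3.59, 11.6, 1.34 and 10.1 CPM in Aifm1-KI and at 1.47, 1.65, 1.53 and 1.42 CPM in Aifm1-WT, and at 4.02, 1.51, 25.8 and 2.03 CPM in Hq-mut and at 1.14, 3.29, 1.2 and 2.86 CPM in Hq-WT. The 4 Aifm1-KI libraries stood in the same order for Drd2. Gng7, the G protein subunit that partners with the Gnal product, moved less in proportion, reaching 174 and 163 CPM in Aifm1-KI 2 and 4 and 171 CPM in Hq-mut 3 over a range of 75.9 to 103 CPM in the other 13 libraries.

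Some of the counts carry a limit of the annotation. Exons of Penk, Six3, Ppp1r1b and Syndig1l overlap genes on the opposite strand, by 233 bases with A830012C17Rik, 106 bases with Six3os1, 168 bases with Gm28528, 460 bases with 1700003D09Rik and 177 bases with Gm48573. The strand setting of the counting is not given in the sources used here, so how reads in these shared bases were counted is not known. Drd1 (GRCm38 chromosome 13, 54051183 to 54055705, minus strand), Drd2 (chromosome 9, 49340627 to 49408177, plus strand), Adora2a (chromosome 10, 75316877 to 75334784, plus strand), Rgs9 (chromosome 11, 109225355 to 109298129, minus strand) and Pde10a (chromosome 17, 8525372 to 8986648, plus strand) have no exon shared with an opposite-strand gene in that annotation.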

How the data were processed

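Total RNA of 16 cortex samples was sequenced as 51-base single-end reads, per the labels' protocols and the series' design text. The authors mapped reads to mm10 with STAR and counted them per gene with htseq-count. The submitters' processing notes give STAR 2.6 and name SAMtools and HTSeq. Neither the annotation release nor the strand setting of counting is given in the sources used here. What the authors deposited is 1 table of raw counts, with Ensembl genes in rows and 16 libraries in columns. All columns and rows were used, and 16598 of the 55573 gene IDs had no count.

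Symbols, positions and exon lengths came from GENCODE M21 on GRCm38, which paired 55480 IDs, and promoter windows from RefSeq on GRCm38.p6. CPM used TMM factors, and log2 CPM a prior count of 2. Comparisons were fitted with edgeR 4.0.16 in R 4.3.3 (filterByExpr by group, quasi-likelihood F-test, Benjamini-Hochberg adjustment over all genes tested, call at 0.05), each mutant line by itself (8 libraries) and the other contrasts over all 16. The tests were checked on simulated data with 200 changed genes. Alternatives were DESeq2 1.42.0, its size factors, no filter, a replicate block and each library left out. The samples are separate by label, and nothing says each is a separate animal, so p-values rest on the spread between libraries, which may be technical.

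Same-numbered libraries were taken as pairs where every correlation of their deviations from the group means was over 0.1: Hq pairs had 0.43, 0.53, 0.41 and 0.45, and Aifm1 pairs 0.06, 0.10, 0.04 and -0.03. The pairing of the Hq libraries rests on this, since the labels do not say what a number marks.

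The members, the marker lists and the named genes were chosen with earlier results of these data known. Named were the 9 markers, Aifm1, of each list genes among the 3 highest or called in a fit, and the 8 genes most like the mean of the markers. Slc35d3 was also described as one of those 8. Lhx8, Slc18a3, Pvalb, Lhx9 and Ramp3 were chosen after their values were seen. One gene of the cortical excitatory neuron list is not reported here and was left out of its sums.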

Additional observations from a re-analysis of the deposited data

Results flagged for a closer look

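In a group of 4 libraries, 1 library stood apart from the other 3 by more of the group's range than Dixon's 95% limit for 5 of 36 combinations of marker and group. Chance gives about 5% of such groups, but the genes were picked with their levels in these libraries known, so the count is a description and not a test. All 5 are in Hq-mut 3. Drd2 was at 20.0 CPM there, against 1.99 to 4.75 CPM in the other 3 Hq-mut libraries. Adora2a was at 21.9 CPM, against 1.99 to 3.21 CPM. Penk was at 139 CPM, against 28.5 to 43.2 CPM. Ppp1r1b was at 147 CPM, against 68.3 to 76.1 CPM, and Syndig1l at 31.0 CPM, against 2.90 to 5.05 CPM. The 5 are not independent, since they come from 1 library. In Aifm1-KI, where 2 libraries were high, no marker stood apart in this way.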

How the results depend on the processing

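For Aifm1-KI against Aifm1-WT, edgeR called 0 genes and DESeq2 82, 6 of them markers. Leaving out each library in turn gave 0 to 46 genes and 0 to 4 markers. The replicate block left the count at 0. For Hq-mut against Hq-WT, 3 genes were called. Without pair 3 it was 1, with the replicate block or without it, and leaving out each library gave 1 to 2. With the replicate block alone it stayed at 3, and DESeq2 with the replicate block, chosen after seeing the data, called 33. None of these was a marker. The difference of effects had 2 calls, 5 with DESeq2, 1 to 2 leaving out each library and 2 with the replicate block. For Hq-WT against Aifm1-WT the 109 calls became 307 with DESeq2, 279 with no filter, 32 to 197 leaving out each library, and 453 with the replicate block, which called 1 marker, Pde10a. For this contrast between lines the block removes spread that the contrast rests on, so its calls are not used as support. Leaving out each library turned the sign of several small wild-type log2 fold changes: Adora2a ran from -0.048 to 0.14, Penk from -0.030 to 0.33, Ppp1r1b from -0.039 to 0.18, Syndig1l from -0.26 to 0.41 and Six3 from -0.037 to 1.49. The cause was not tested. The balance of the pathways, also read without each library after seeing the data, differed by 1.08 to 1.74 in the knock-in line and 0.13 to 0.71 in Harlequin. Depth limits Six3, with 0 to 13 reads in each wild-type library.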
